A study of Mus musculus with 14 samples.

Results

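The replication-dependent histone genes of the mouse were followed in RNA-seq libraries of embryonic hippocampus from 2 mouse models of Down syndrome. Members were all symbols of the Hist1h, Hist2h, Hist3h and Hist4h series of linker and core histones with a matching transcript in the deposited map of transcripts to symbols. There were 50 such genes among 21107 named symbols: 4 linker H1, 12 H2A, 16 H2B, 8 H3 and 10 H4 genes. By locus, 38 belonged to Hist1, 9 to Hist2, 2 to Hist3 and 1 to Hist4. A value was found for 45 genes on 44 rows of the table of normalized values, since Hist1h1e and Hist1h2be shared a row. No row with a value was matched to the other 5 genes, which were taken as 0.

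The libraries came from hippocampi of embryos between embryonic days 16 and 18. The 189N3 line, Tg(Dyrk1a)189N3Yah, carries a bacterial artificial chromosome with an extra copy of the Dyrk1a locus (3 libraries, against 3 of wild-type littermates). The Dp(16)1Yey/+ line, Dp(16Lipi-Zfp295)1Yey, carries a duplication of the part of mouse chromosome 16 between Lipi and Zfp295, Dyrk1a included, and so holds this region in triplicate (4 libraries, against 4 of wild-type littermates). Crosses of heterozygous mice with C57BL6 are described for embryos used in neuron cultures, and the cross behind these libraries is not stated. Both changes are present in every cell of the embryo, whether each library was 1 embryo is not stated, and p-values therefore measure the spread between these libraries, which may be partly technical.

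Histone genes of this kind are transcribed in S phase, when new DNA has to be packed: H2A, H2B, H3 and H4 form the nucleosome core and H1 binds the linker DNA between nucleosomes. Their mRNAs generally lack introns and end, not in a poly(A) tail, but in a short stem-loop bound by the stem-loop binding protein Slbp, and they are degraded when replication stops. Some of the genes can also give longer, polyadenylated transcripts, which are known from cells that have left the cell cycle. The labels name poly(A) RNA and the methods a total RNA kit, so how well the tail-less mRNAs were captured is uncertain. Labels and methods say the same of all 14 libraries, and whether the capture varied between libraries was not measured.

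The stem-loop is shown here because it defines these mRNAs and because its form differed by class. A 16-base match to the consensus with up to 2 differences was found in the GENCODE transcripts (release M21, GRCm38) of 30 of the 50 members: 4 of 4 H1, 7 of 12 H2A, 8 of 16 H2B, 6 of 8 H3 and 5 of 10 H4 genes. Over the annotation 158 of 55341 genes, or 0.286%, held a match. The consensus itself was present in 19 members. All 5 H4 genes with a match carried the same other core, with 2 differences in the stem, and 5 genes of H1, H2B and H3 shared a core with 1 difference in the loop. Hist2h2ac had a core of its own. Several models without a match end at or near the stop codon, so no match says only that these letters are not in the model. The stem-loop is in capitals below, followed by the next bases of the transcript.
Hist1h1c: GGCTCTTTTCAGAGCCaccactcccactta
Hist1h1e: GGCTCTTTTCAGAGCCacccacaactctca
Hist3h2a: GGCTCTTTTCAGAGCCacccacaacctcat
Hist1h3a: GGCTCTTTTCAGAGCCacacacgatttcaa
Hist1h2bb: GGCTCTTTTAAGAGCCacccacacttttca
Hist1h3f: GGCTCTTTTAAGAGCCacctccattatcca
Hist1h4d: GGCCCTTTTCAGGGCCactaccttctcact
Hist1h4f: GGCCCTTTTCAGGGCCacccactttgtcat
Hist4h4: GGCCCTTTTCAGGGCCcacaaagcatcaga

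The promoters are shown because the classes also differed there. RefSeq windows of 300 bases (250 before and 50 after the start, GRCm38) were found for 44 of the 50 members, with 45 entries, and 5 short motifs were searched on both strands. The CCAAT box (CCAAT), which is bound by NF-Y, was in 4 of 4 H1, 12 of 12 H2A, 14 of 14 H2B and 6 of 6 H3 entries but in 2 of 9 H4 entries, against 37.4% of all 32851 promoters. The H1 box (AAACACA) was in 4 of 4 H1, 2 of 12 H2A and 2 of 14 H2B entries and in no H3 or H4 entry, against 7.18% of all promoters. The octamer (ATTTGCAT), bound by Oct-1, was in 6 of 12 H2A and 7 of 14 H2B entries and in no other class, against 1.74% of all. GGTCCG, the core of the H4 subtype element, was in 8 of 9 H4 entries and in no entry of another class, against 8.25% of all; it was added to the search after the H4 sequences had been seen. TATAAA was in 33.3% to 66.7% of the entries of each class, against 13.6% of all. Divergent H2A and H2B genes share part of their windows, so these entries are not independent, and a match is only a run of letters. The 120 bases before the start are given below for 1 gene of each class, with the motifs in capitals on either strand.
Hist1h1c, chr13:23738687-23738806, plus strand, H1 box and CCAAT box: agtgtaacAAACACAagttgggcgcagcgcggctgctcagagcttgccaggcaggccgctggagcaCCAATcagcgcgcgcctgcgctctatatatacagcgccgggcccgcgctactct
Hist3h2a, chr11:58954565-58954684, plus strand, octamer on the other strand and 2 CCAAT boxes: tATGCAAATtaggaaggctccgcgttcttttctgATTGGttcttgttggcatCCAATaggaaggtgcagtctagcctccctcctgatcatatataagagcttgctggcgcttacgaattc
Hist2h2bb, chr3:96269580-96269699, plus strand, CCAAT box and octamer: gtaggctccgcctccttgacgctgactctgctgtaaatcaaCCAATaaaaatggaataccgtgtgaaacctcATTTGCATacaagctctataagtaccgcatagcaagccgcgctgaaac
Hist1h3e, chr13:23562386-23562505, minus strand, CCAAT box: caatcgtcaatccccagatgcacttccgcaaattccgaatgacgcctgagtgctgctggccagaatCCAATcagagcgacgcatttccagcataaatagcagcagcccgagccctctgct
Hist1h4f, chr13:23551669-23551788, minus strand, H4 element: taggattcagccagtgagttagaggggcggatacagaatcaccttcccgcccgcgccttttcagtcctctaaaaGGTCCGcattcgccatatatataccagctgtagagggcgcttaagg

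The Hist1 genes lay on chromosome 13 in 2 blocks, 15 genes at chr13:21715763-22043676 and 23 genes at chr13:23531050-23934851. Hist2 was at chr3:96219865-96270132, Hist3 at chr11:58954048-58956830 and Hist4h4 at chr6:136801553-136804415 (GRCm38).

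The deposited values were fragments divided by a size factor of each library, in which 1 fragment was worth 0.816 to 1.21 units, and the libraries held 20809135 to 29098454 fragments. Dyrk1a, the targeted gene, lay between 3938 and 5877 in 189N3 and between 2126 and 2977 in its littermates. In Dp(16)1Yey/+ it was 4781, 2124, 3600 and 3044 in replicates 0 to 3, against 2397 to 3175 in littermates. The library labelled Dp(16)1Yey/+ replicate 1 was therefore below every littermate in Dyrk1a. Its median over 72 named genes of the triplicated region was 1.10 times the littermates' mean, against 1.32 to 1.59 in the other 3 libraries. Single littermates lay at 0.925 to 1.07 by this measure. The highest 189N3 library, without the duplication, lay at 1.24 times the mean of its own littermates. By dosage the label of replicate 1 is thus in doubt. Log2 differences of named members and medians of gene lists in Dp(16)1Yey/+ are given with and without this library. Those of single listed genes include it. The Dp(16)1Yey/+ littermates formed 2 nearly alike pairs over all loci (replicates 0 and 1, and 2 and 3, at 1.41 and 1.53 times counting noise, against 10.1 to 11.0 between pairs). At the histone rows replicates 0 and 1 differed by 2.97 times counting noise and replicates 2 and 3 by 18.4 times. All 4 were kept as separate samples, although the libraries of either pair may not be independent. The p-values of 4 against 4 rest on this choice. Markers of hippocampus and pallium were detected, 11 of 11, among them Prox1 and Zbtb20.

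Levels were compared between genes per kilobase of annotated exon. Hist2h2bb, an H2B gene, was the highest at 13630 ± 9517 units per kb (SD over 14 libraries) and made up 52.9% of the summed level per kb of all members. Its model holds only 381 bases with no stem-loop, so this level is high in part by the length it was divided by, and without division by length its share was 28.3%. Next came Hist1h2bb (H2B) at 2558 ± 1892, Hist1h1e (H1.4) at 1522 ± 699 and Hist1h1c (H1.2) at 987 ± 654 units per kb. This order, too, depends on the lengths. Hist1h1d, with 7425 bases of exon, held 0.807% of the summed level per kb but 8.40% without division by length. For Hist1h1c the shares were 3.83% and 8.38%. In every class a few genes carried most of the level.

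By class, H2B held 70.9% to 79.4% of the summed level per kb over the 14 libraries, H1 9.34% to 12.4%, H2A 3.64% to 6.89%, H4 4.06% to 8.96% and H3 2.88% to 4.24%. H3 was thus the lowest class on average at 3.47%. Without Hist2h2bb the H2B share fell to 47.5%, and H1 then held 22.5%, H4 11.5%, H2A 11.2% and H3 7.27%. By cluster, Hist2 held 54.6% on average, Hist1 39.6%, Hist3 5.56% and Hist4 0.257%, and without division by length Hist1 was the largest at 58.1%. These shares overlapped between each model and its littermates for H2B and for Hist1. For linker H1 the 189N3 libraries held 12.0% to 12.4% and their littermates 11.0% to 11.8%, and for H2A they held 6.35% to 6.67% against 5.41% to 6.17%, both without overlap. Without division by length the groups overlapped, at 34.3% to 36.0% against 32.9% to 34.8% for H1 and 9.77% to 11.1% against 7.52% to 10.4% for H2A, and neither difference was tested.

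Several members were hardly measured. The 5 genes taken as 0 were Hist1h2aa and Hist1h2ba, which encode histones of the testis, and Hist1h2ah, Hist1h2ao and Hist1h2bq. Hist1h1t (the testis linker histone H1t), Hist1h2ai, Hist1h2bk, Hist1h4n and Hist2h2aa2 had means of 3.83, 0.315, 2.51, 0.828 and 0.0707 units. Just under the filter of a mean of 10 lay Hist1h4b at 9.46 and just above it Hist2h3b at 10.1. Members are near-copies of each other, and reads of 1 copy can be lost or given to another: of the 11 members under 10 or at 0, 7 shared more than 70% of their 100-base windows with another gene, against 3 of the 39 above the filter. The median share was 80.7% and 31.8%. Values of genes such as Hist1h3h (92.0% shared), Hist2h3b (77.1%) and Hist1h2ag (76.2%) are uncertain for that reason, while Hist2h2bb, Hist2h2be, Hist2h4, Hist1h4d and Hist3h2a shared no window.

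Some rows held more than 1 transcript. The isoform table put 69.1% to 86.3% of the shared row on Hist1h1e and the rest on Hist1h2be, and 96.3% to 98.6% of the Hist3h2a row on Hist3h2a and the rest on Trim17. In the Hist1h1d row a median of 86.5% lay on a longer overlapping isoform, and in the Hist1h3f row 54.2%. The Hist1h2ab row drew a median of 49.4% from an isoform overlapping Hist1h2bc. Hist3h2bb-ps is annotated as a processed pseudogene.

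The members rose and fell together from library to library. Over the 38 rows with a mean of at least 10, the median of the log2 level relative to each gene's own mean was -0.36, -1.0 and -0.40 in 189N3 replicates 0, 1 and 2, and 0.05, -0.56 and 0.69 in their littermates. It was -0.14, 1.41, -0.19 and -0.05 in Dp(16)1Yey/+ replicates 0 to 3, and -0.12, -0.30, 0.23 and 0.69 in their littermates. The library labelled Dp(16)1Yey/+ replicate 1 stood above the mean in 38 of 38 rows. The 189N3 replicates 0, 1 and 2 did so in 1, 0 and 3 of 38, and wild-type replicate 1 of their litters in 2. Wild-type replicate 2 of the 189N3 litters stood above it in 35 rows and wild-type replicate 3 of the Dp(16)1Yey/+ litters in 36.

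**Figure D1:**
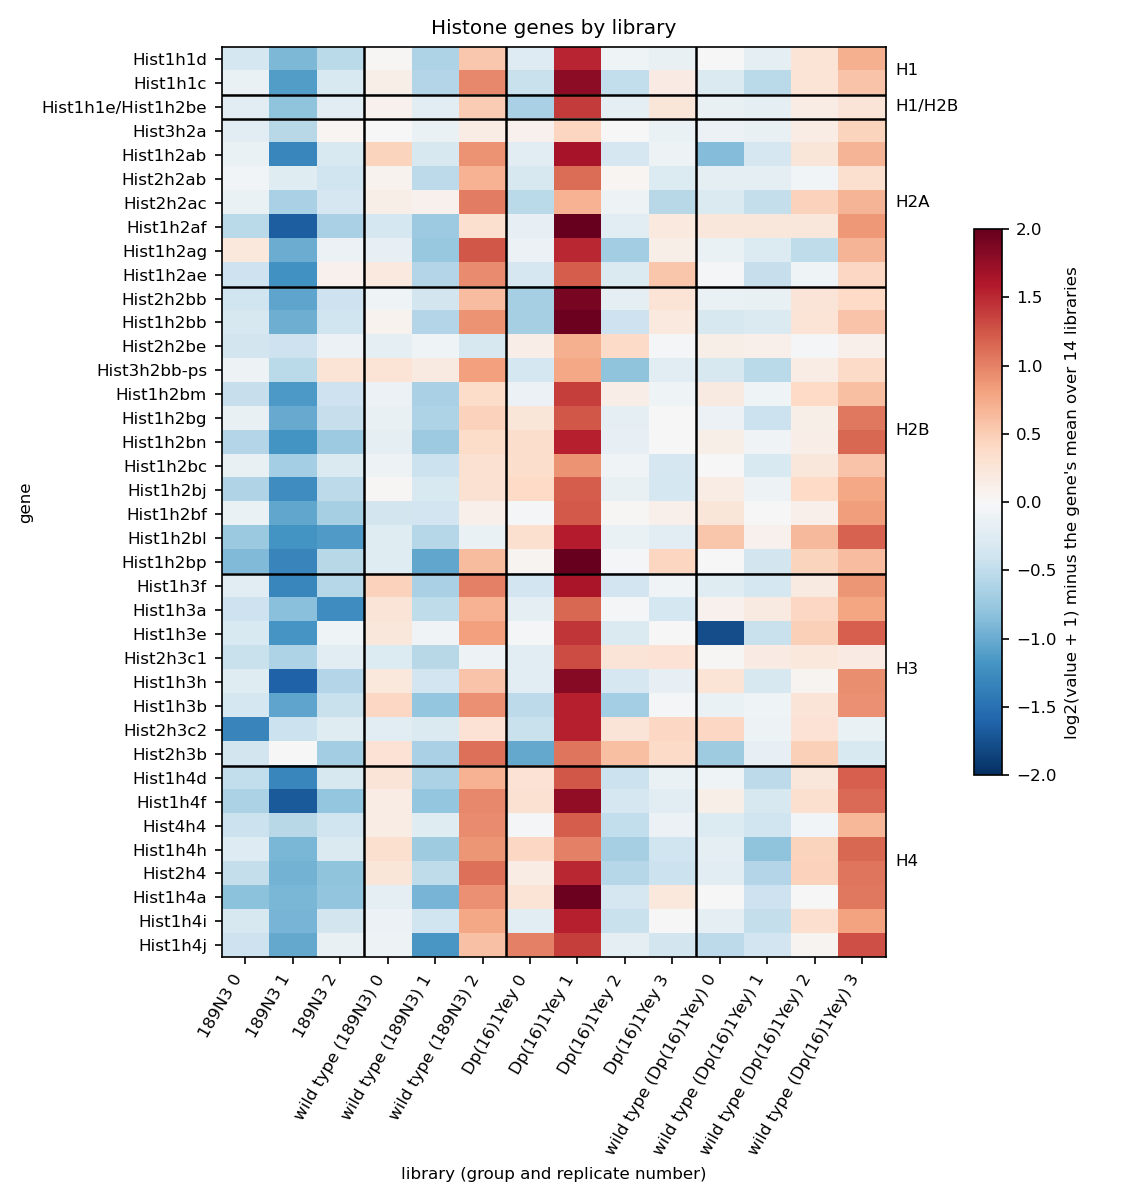
Heat map of 38 histone rows (y axis, grouped by class, each class ordered by mean level) in 14 libraries (x axis), coloured by log2(value + 1) minus the gene's mean over the libraries. The column of the library labelled Dp(16)1Yey/+ replicate 1 is above the mean in 38 of 38 rows and that of 189N3 replicate 1 in 0 of 38.

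The genes differed in how much they varied within groups, a spread that holds each gene's own noise beside the shared movement. The pooled SD within groups of log2(value + 1) had a median of 0.65 over the 38 rows, against 0.36 over all 36045 loci with a mean of at least 10. It was lowest for Hist2h2be (0.20), which encodes the H2B variant known from olfactory neurons, then Hist3h2a (0.25), Hist2h3c1 (0.38) and Hist1h2bc (0.41). It was highest for Hist1h3e (0.88), Hist1h2ag (0.79), Hist1h4j (0.79) and Hist1h2bb (0.78). Of these, Hist1h2ag and Hist1h4j had low means, 23.4 and 11.0 units, where counting noise adds to the SD. By class the median SD was 0.53 for H2B, 0.64 for H2A, 0.72 for H3 and 0.75 for H4, and it was 0.68 for the 2 separate H1 rows. The library labelled Dp(16)1Yey/+ replicate 1 exceeded the mean of the other 3 by a median of 2.78-fold (range 1.37 for Hist3h2a to 5.08 for Hist1h2af), and by more than 2-fold in 34 of 38 rows, against 2.92% of all loci.

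**Figure D2:**
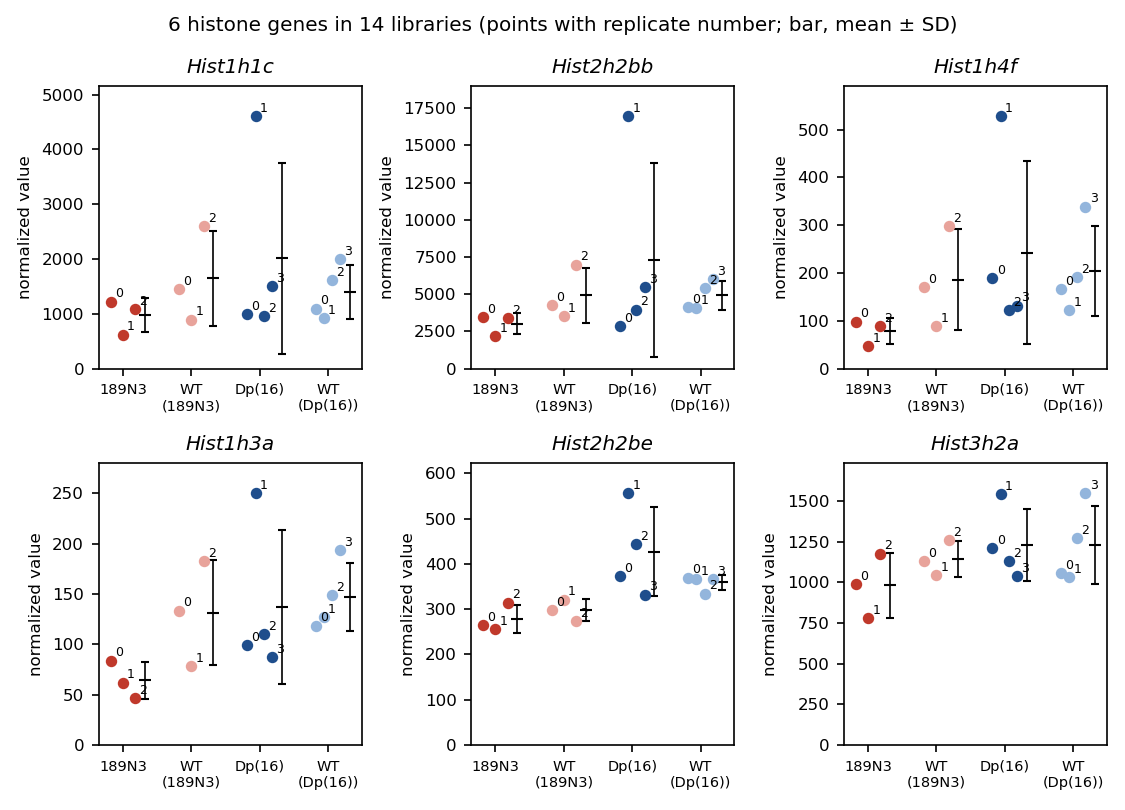
Normalized values (y axis, from 0) of 6 histone genes in the 4 groups (x axis), 1 point per library with its replicate number, and the mean ± SD of each group beside the points. Hist1h1c, Hist2h2bb, Hist1h4f and Hist1h3a each have 1 high point in Dp(16)1Yey/+, the library labelled replicate 1, while Hist2h2be and Hist3h2a vary least.

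The first comparison asked how the extra copy of Dyrk1a alone bears on these genes. Of the 44 rows, 36 passed the filter on low values, and all 36 had a lower mean in 189N3 than in littermates, with a median log2 difference of -0.68 and a range from -1.14 (Hist1h4f) to -0.10 (Hist2h2be). Among all 35899 loci tested, 56.2% were lower and the median was -0.04. In limma 0 members passed the Benjamini-Hochberg threshold of 0.05, as did 0% of all loci, and edgeR (0% of all loci) and DESeq2 (0.0418%) called 0 members too. At an unadjusted p under 0.05, 13 of the 36 were lower, against 1.05% of all loci (21 members and 1.06% of all loci in edgeR, 19 members and 0.652% in DESeq2), and 7 of the 36 had groups that did not overlap, against 2.99%. In bulk tissue, fewer cells of a type and less RNA per cell cannot be told apart.

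The size of the difference depended on single libraries. Wild-type replicate 2 was the highest of the 6 in 35 of 36 rows (15.1% of all loci) and 189N3 replicate 1 was the lowest in 32 of 36 (22% of all loci). Without wild-type replicate 2 the median was -0.35, with 35 of 36 rows lower (56.2% of all loci with all libraries). Of these rows 0 were under an unadjusted p of 0.05 (0.477% of all loci). Without both libraries the median was -0.15, with 29 of 36 rows lower and again 0 under 0.05 (2.5% of all loci); this second setting was chosen after the data had been seen. A direction shared by so many rows is not that many separate results, since the members moved together in each library.

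Among linker histones, the shared row of Hist1h1e and Hist1h2be was 2916, 1953 and 2896 in 189N3 and 3607, 2920 and 4835 in littermates. The groups did not overlap, but 189N3 replicate 0 and wild-type replicate 1 were nearly equal. The log2 difference was -0.54 ± 0.26 (SE), with an adjusted p of 1.00 (limma) and an exact two-sided permutation p of 0.10, the smallest that 3 against 3 can give. With the row split by isoform values, the difference was -0.47 ± 0.24 for Hist1h1e (unadjusted limma p of 0.0727). For the H2B gene Hist1h2be it was -0.91 ± 0.27 (unadjusted limma p of 0.00497). Neither passed the adjusted threshold. Hist1h1c was 1222, 619 and 1089 against 1455, 893 and 2598, with overlapping groups and a difference of -0.68 ± 0.35. Hist1h1d (H1.3) was 1099, 748 and 965 against 1418, 918 and 2041, also overlapping, with a difference of -0.58 ± 0.29.

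Among H2A genes, Hist3h2a, the highest of the class, was 987, 780 and 1177 in 189N3 and 1130, 1042 and 1260 in littermates. These values overlapped and differed by -0.24 ± 0.24 on the log2 scale. Hist1h2ab was 141, 62.0 and 125 against 211, 124 and 290, a difference of -0.93 ± 0.35. Hist2h2ac was 60.9, 42.4 and 52.9 against 72.8, 71.3 and 137 and did not overlap, with a difference of -0.78 ± 0.31 and an exact permutation p of 0.10. The 7 tested H2A rows had a median of -0.70, and 2 had an unadjusted p under 0.05, against 1.05% of all loci lower at that level.

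Among H2B genes, Hist2h2bb was 3431, 2179 and 3409 in 189N3 and 4249, 3505 and 6991 in littermates. The groups did not overlap, the gap being small beside the spread of the littermates, and the difference was -0.68 ± 0.28 (unadjusted limma p of 0.0306, exact permutation p of 0.10). Hist1h2bb was 890, 565 and 843 against 1167, 737 and 2072 and overlapped, with a difference of -0.69 ± 0.33. Hist1h2bl was 30.5, 22 and 22.8 against 43.3, 34.3 and 47.1, without overlap and with a difference of -0.71 ± 0.30. Hist2h2be lay at 265, 256 and 314 against 298, 321 and 273, fully mixed, with a difference of -0.10 ± 0.23. The 12 tested H2B rows had a median of -0.60, and 3 had an unadjusted p under 0.05, against 1.05% of all loci lower at that level.

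H3 had the lowest median of the classes, -0.84 over 7 tested rows. Of these rows, 4 had an unadjusted p under 0.05, against 1.05% of all loci lower at that level. Hist1h3a, one of the genes that encode H3.1, was 83.8, 62.0 and 46.7 in 189N3 and 133, 78.5 and 182 in littermates, overlapping at 1 library. Its difference was -0.98 ± 0.33, with the smallest unadjusted p of the tested rows (0.00951, limma, adjusted p of 1.00) and an exact permutation p of 0.20. Hist1h3f, which encodes H3.2, was 199, 93 and 156 against 318, 146 and 466, a difference of -0.97 ± 0.38 with overlap. Hist2h3c1 was 64.3, 57.1 and 75.8 against 72.8, 59.6 and 82.2, close in both groups, with a difference of -0.12 ± 0.27.

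For H4, whose genes encode 1 and the same protein, the median was -0.77 over 7 tested rows. Of these rows, 4 had an unadjusted p under 0.05, against 1.05% of all loci lower at that level. Hist1h4f was 98.1, 47.3 and 89.3 in 189N3 and 170, 89.3 and 298 in littermates. Wild-type replicate 1 reached down into the 189N3 range, and the difference of -1.14 ± 0.39 was the lowest of the members (unadjusted limma p of 0.0109, exact permutation p of 0.20). Hist2h4 was 99, 71 and 78.9 against 163, 96.6 and 297, overlapping at wild-type replicate 1, with a difference of -1.02 ± 0.35. Hist1h4d was 136, 76.7 and 154 against 228, 124 and 312, a difference of -0.81 ± 0.35. Hist4h4 was 124, 113 and 126 against 185, 141 and 321 and did not overlap, with a difference of -0.74 ± 0.30.

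The clusters were less apart than their genes. The median was -0.70 over 26 Hist1 rows, -0.58 over 7 Hist2 rows, -0.39 over the 2 Hist3 rows and -0.74 for Hist4h4. Within Hist1 it was -0.68 over 8 rows of the block nearer the start of the chromosome and -0.70 over 18 rows of the other. Rows with a stem-loop in the model had a median of -0.70 (23 rows) and those without -0.66 (12 rows). It was -0.58 for 12 rows with at least 1000 bases of exon and -0.70 for 24 shorter ones, and -0.58 for 13 rows with less than 10% of shared windows and -0.70 for the 23 others. None of these differences between classes, clusters or kinds of row was tested.

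**Figure D3:**
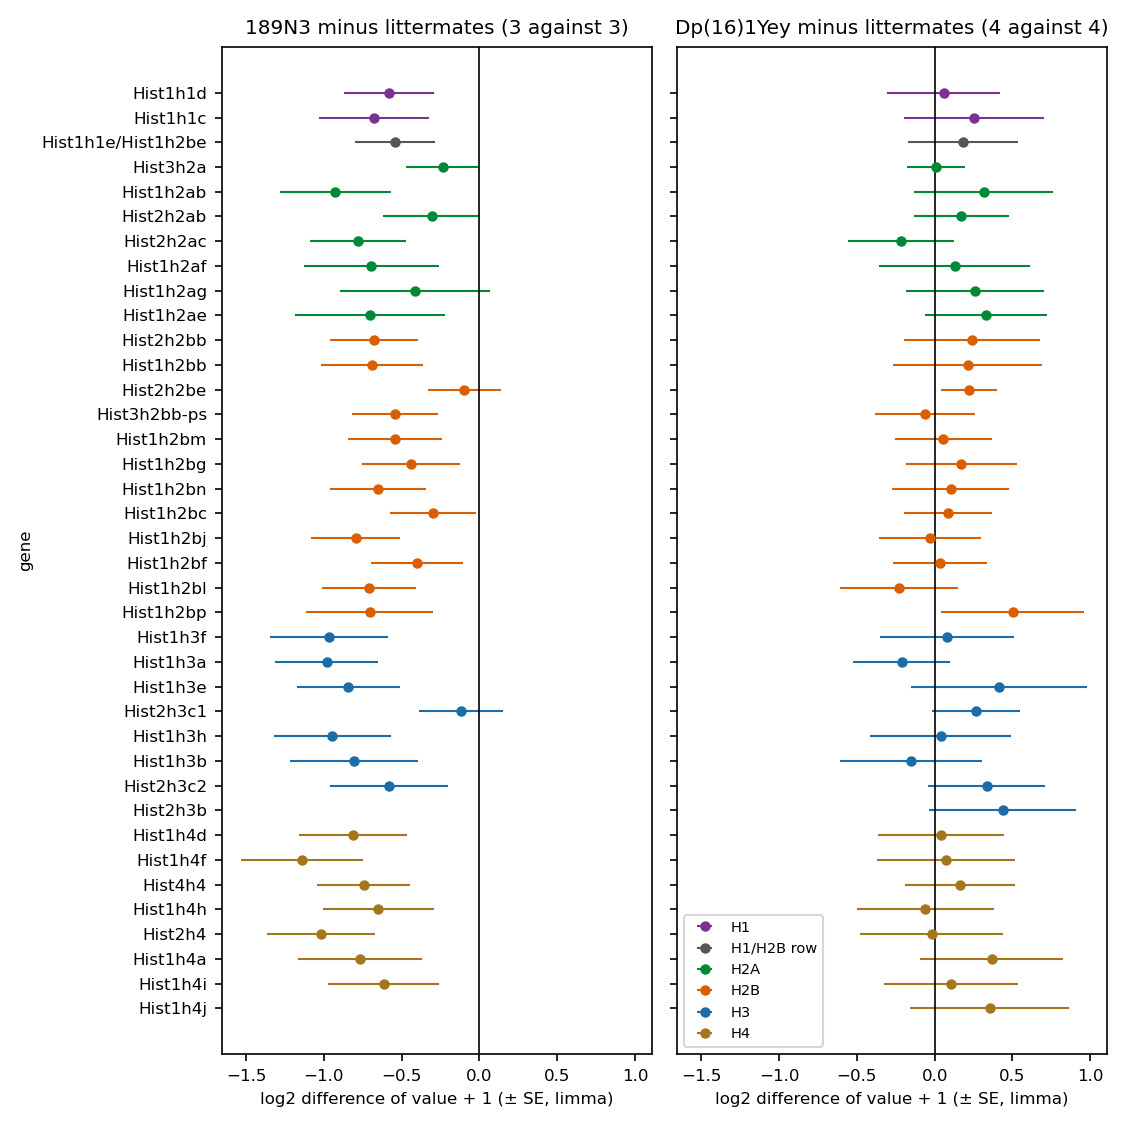
Log2 differences of value + 1 (x axis, points, ± SE from limma) of 38 histone rows (y axis, coloured by class) between 189N3 and littermates on the left and Dp(16)1Yey/+ and littermates on the right. Rows without a point did not pass the filter in that comparison, and all 36 points on the left are below 0, while those on the right scatter around 0.11.

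The second comparison asked the same of the whole triplicated region. Of the 44 rows, 39 passed the filter, and 31 had a higher and 8 a lower mean in Dp(16)1Yey/+ than in littermates, with a median log2 difference of 0.11 and a range from -0.23 (Hist1h2bl) to 0.50 (Hist1h2bp). Among all 36024 loci 45.1% were lower and the median was 0.03. In limma 0 members passed the adjusted threshold (0% of all loci), 0 had an unadjusted p under 0.05 (3.53% of all loci) and 0 had groups that did not overlap (0.736% of all loci lower and 1.72% higher). edgeR and DESeq2 gave 0 members with an adjusted p under 0.05 (0% and 0.0222% of all loci) and 0 with an unadjusted p under 0.05 (3.67% and 3.66%) as well.

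Here the direction rested on single libraries, most of all on the library labelled Dp(16)1Yey/+ replicate 1, the highest of the 8 in 37 of 39 rows (20.1% of all loci). Without it the median was -0.27, with 34 of 38 rows lower (45.6% of all loci). Of these rows 2 were under an unadjusted p of 0.05 (0.825% of all loci). Each class changed sign with it: from 0.16 to -0.31 for the 2 separate H1 rows, from 0.17 to -0.15 for H2A, from 0.09 to -0.28 for H2B, from 0.17 to -0.40 for H3 and from 0.10 to -0.29 for H4. By cluster the median went from 0.10 to -0.28 for Hist1, from 0.23 to -0.15 for Hist2, from -0.03 to -0.24 for Hist3 and from 0.16 to -0.20 for Hist4h4. The littermates mattered too. When wild-type replicate 1 was left out, 21 of 39 rows were lower and the median was -0.03, with Hist1h1d, Hist3h2a, Hist1h3f, Hist1h4b, Hist1h4d and Hist1h4f among those that changed sign. When wild-type replicate 0 was left out, 14 of 39 rows were lower, and without wild-type replicate 3 or Dp(16)1Yey/+ replicate 2 the count was 3 (of 39 and 38). Without Dp(16)1Yey/+ replicate 3 it was 5 of 39. With all libraries 45.1% of all loci were lower.

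**Figure D4:**
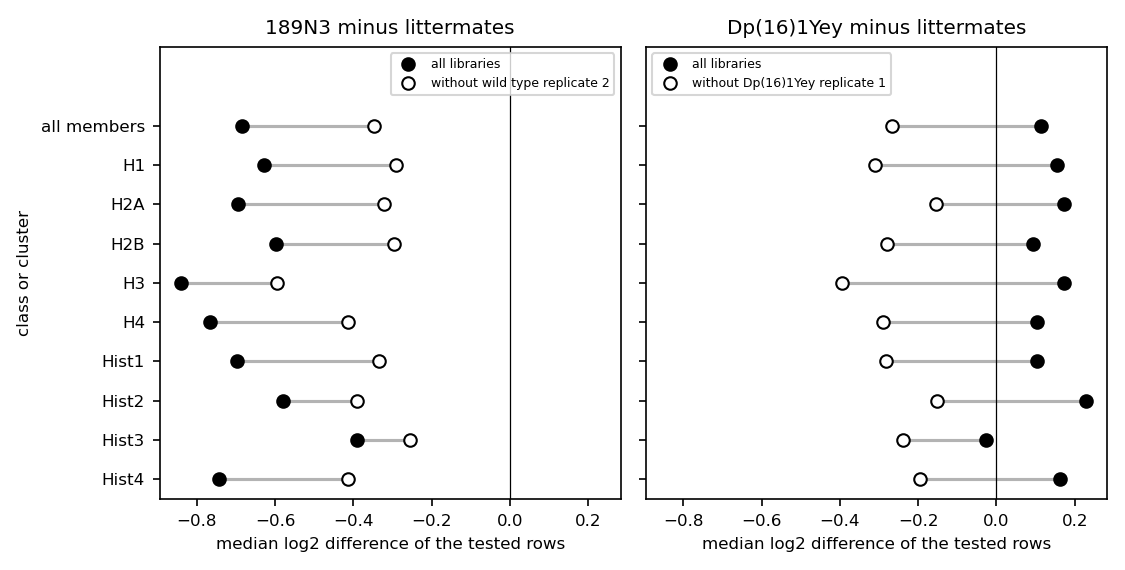
Median log2 difference (x axis) of the tested rows of each class and cluster (y axis) with all libraries (filled) and without 1 library (open), for 189N3 on the left and Dp(16)1Yey/+ on the right. Over all members the median goes from -0.68 to -0.35 without wild-type replicate 2 and from 0.11 to -0.27 once the library labelled Dp(16)1Yey/+ replicate 1 is left out.

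The single genes showed the same. Hist1h1c was 987, 4606, 955 and 1498 in Dp(16)1Yey/+ replicates 0 to 3 and 1095, 915, 1620 and 1994 in littermates. Apart from replicate 1 the values were mixed, and the difference was 0.25 ± 0.45 (-0.26 without replicate 1). Hist1h1d was 1171, 4028, 1328 and 1267 against 1407, 1237, 1699 and 2285 (0.06 ± 0.36, and -0.36 without replicate 1), and the row of Hist1h1e and Hist1h2be was 2179, 8935, 2973 and 4045 against 3084, 2990, 3788 and 4060 (0.18 ± 0.35, and -0.22). Hist2h2bb was 2870, 16962, 3967 and 5493 against 4127, 4080, 5435 and 6004, and its lowest value, too, was a Dp(16)1Yey/+ library. Its difference was 0.24 ± 0.44, with an exact permutation p of 0.886, and -0.29 without replicate 1.

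Of the genes with the smallest p in each direction, Hist2h2be was 374, 557, 444 and 332 in Dp(16)1Yey/+ and 370, 367, 335 and 366 in littermates. Here 3 of 4 libraries were above all littermates, and the difference was 0.22 ± 0.18 (unadjusted limma p of 0.252) and 0.08 without replicate 1. Hist1h2bp was 41.5, 195, 38.8 and 54.3 against 40.2, 30.7, 55.1 and 61.7, its difference of 0.50 ± 0.46 turning to -0.03 without replicate 1. Hist2h3c1 was 75.2, 220, 105 and 108 against 89.6, 99, 101 and 99.1 (0.27 ± 0.28, and -0.036 without replicate 1).

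In the other direction, Hist1h3a was 98.9, 250, 110 and 87.6 in Dp(16)1Yey/+ and 118, 127, 149 and 193 in littermates, so that 3 of 4 libraries lay below every littermate. Its difference was -0.21 ± 0.31 with all libraries and -0.55 without replicate 1 (exact permutation p with all libraries of 0.571). Hist2h2ac was 45.5, 109, 62.2 and 45.3 against 54.6, 47.5, 92.8 and 107 (-0.22 ± 0.34, and -0.49 without replicate 1). Hist1h2bl was 64.3, 155, 46.9 and 44.3 against 76.2, 54.4, 81.0 and 118 (-0.23 ± 0.38, and -0.63). The H4 genes overlapped throughout: Hist1h4f was 190, 528, 121 and 132 against 166, 123, 191 and 339, a difference of 0.07 ± 0.44, and -0.39 without replicate 1.

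The remaining genes that were highest in their class showed no separation either. Hist3h2a was 1208, 1544, 1130 and 1037 in Dp(16)1Yey/+ and 1057, 1032, 1269 and 1550 in littermates, the most even of these genes (0.01 ± 0.19, and -0.11 without replicate 1). Hist1h2ab was 132, 488, 122 and 144 against 84.5, 123, 182 and 249 (0.31 ± 0.45, and -0.15), and Hist1h2bb was 700, 4321, 837 and 1267 against 886, 905, 1344 and 1655 (0.21 ± 0.48, and -0.35). In both genes replicate 1 was far above the 7 other libraries. Hist1h3f was 177, 717, 177 and 220 against 195, 181, 262 and 426 (0.08 ± 0.43, and -0.40), and Hist1h4d was 235, 453, 142 and 175 against 180, 133, 225 and 440, where wild-type replicate 3 came close to replicate 1 (0.04 ± 0.40, and -0.29). Hist2h4 was 153, 393, 92.9 and 102 against 120, 91, 190 and 291 (-0.02 ± 0.46, and -0.47 without replicate 1). Hist4h4 was 162, 388, 118 and 154 against 138, 126, 160 and 264 (0.16 ± 0.35, and -0.20). At the filter, Hist2h3b was 3.96, 20, 14.3 and 12.1 against 5.15, 7.92, 13 and 7.08, and Hist1h4b was 17.8, 22.3, 8.16 and 5.03 against 7.21, 5.94, 13 and 21.2, a few fragments in each library.

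The difference between the 2 genotype effects was fitted on all 14 libraries. It was above 0 in all 38 rows tested, that is, lower in 189N3 than in Dp(16)1Yey/+ relative to the own littermates, with a median of 0.76 against 0.08 over all 36045 loci, of which 42.8% were below 0. In limma 0 rows passed the adjusted threshold (0% of all loci) and 0 had an unadjusted p under 0.05 (2.66% of all loci), with 0 in edgeR (2.51%) and 3 in DESeq2 (2.46%) at that level and 0 adjusted in both. The smallest p was that of Hist1h2ab, with a difference of 1.24 ± 0.67 (unadjusted p of 0.0833, adjusted p of 0.922). The median was 0.49 when wild-type replicate 2 of the 189N3 litters was left out and 0.33 when the library labelled Dp(16)1Yey/+ replicate 1 was. The 2 effects were thus not shown to differ.

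Genes that handle histone mRNA and histones were measured beside the histones, and at an unadjusted p under 0.05 the share of all loci was 1.87% in 189N3, 3.53% in Dp(16)1Yey/+ and 2% there without replicate 1. Of 25 tested genes of histone mRNA processing and transcription (Slbp, Npat, the Lsm10 and Lsm11 subunits of the U7 particle and others), 9 were lower and 16 higher in 189N3, with a median of 0.02 and 0 at an unadjusted p under 0.05, and 12 were lower and 13 higher in Dp(16)1Yey/+, with a median of 0.03 and again 0 (-0.07 and 0 without replicate 1). Their smallest p-values were those of Upf1 (0.35 ± 0.31) and Lsm11 (0.29 ± 0.30) in 189N3 and Casp8ap2 (0.37 ± 0.19) and Mtf2 (0.32 ± 0.17) in Dp(16)1Yey/+. Of 17 histone chaperones and related genes, 0 reached this level in 189N3 (median 0.04) and 3 did in Dp(16)1Yey/+ (median 0.01), among them Chaf1b, a subunit of the chromatin assembly factor whose gene lies in the triplicated region (0.59 ± 0.16), and Tonsl (-0.42 ± 0.17). Without replicate 1 the chaperone median was -0.03 and Chaf1b alone was left at that level. The 11 replacement histone variants are as a group not confined to S phase. They had medians of -0.06 and 0.09 (-0.05 without replicate 1), with 0 at an unadjusted p under 0.05 in both. H2afy2 (0.27 ± 0.26) and H2afv (-0.27 ± 0.26) had the smallest p in 189N3, and Cenpa (0.36 ± 0.28) and H2afz (0.37 ± 0.31) in Dp(16)1Yey/+.

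Cell cycle genes were given beside the histones because the latter are made in S phase. In 189N3, 20 of 30 S phase and DNA replication genes and 17 of 18 mitosis genes were lower, against 56.2% of all loci, with medians of -0.12 and -0.21 and 0 genes of either list at an unadjusted p under 0.05; Tk1 (-0.39 ± 0.26), Cdt1 (-0.44 ± 0.31), Ube2c (-0.32 ± 0.24) and Aurkb (-0.31 ± 0.27) had the smallest. In the other model, 25 of 30 and 18 of 18 were higher, against 54.9% of all loci, with medians of 0.11 and 0.36 and again 0 at that level, led by Pola1 (0.40 ± 0.25), Gmnn (0.58 ± 0.36), Cenpe (0.59 ± 0.36) and Kif11 (0.48 ± 0.31). Without replicate 1, 14 of 30 and 11 of 18 were higher, against 54.4% of all loci, with medians of -0.04 and 0.06. In the library labelled Dp(16)1Yey/+ replicate 1 the median level relative to each gene's mean was 0.76 for S phase and 1.26 for mitosis, the highest of the 14 libraries for both lists. Wild-type replicate 2 of the 189N3 litters and wild-type replicate 3 of the Dp(16)1Yey/+ litters, both at 0.69 for the histones, were at -0.10 and 0.07 for S phase and at -0.08 and -0.06 for mitosis. Neural progenitor genes were at 0.25 in the library labelled Dp(16)1Yey/+ replicate 1 and at -0.24 and 0.22 in these 2 littermates.

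**Figure D5:**
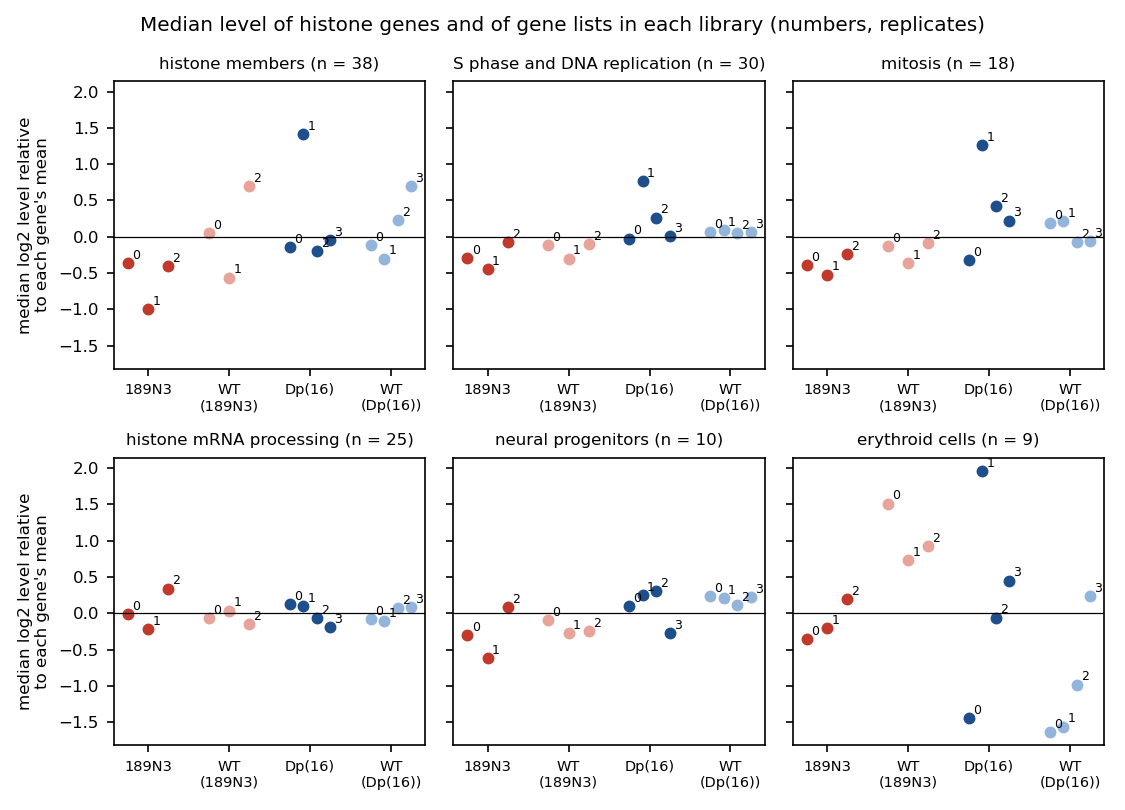
Median log2 level relative to each gene's mean over 14 libraries (y axis) of the histone rows and of 5 gene lists in the 4 groups (x axis), 1 point per library with its replicate number. The library labelled Dp(16)1Yey/+ replicate 1 is at 1.41 for histones, 0.76 for S phase, 1.26 for mitosis and 1.96 for erythroid genes, while wild-type replicate 2 of the 189N3 litters is at 0.69 for histones and at -0.10 and -0.08 for the cell cycle lists.

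Markers of other cell types also moved with the groups. Of 10 erythroid genes found, 9 were tested, and all 9 were lower in 189N3 (median -1.29, 8 with an unadjusted p under 0.05, against 1.05% of all loci lower at that level), with a summed level of 16305 to 25246 against 36669 to 57772 in littermates. In Dp(16)1Yey/+ the summed erythroid level was 8123 to 59096 against 6868 to 19479, all 9 tested genes were higher (median 1.2, 1 with an unadjusted p under 0.05, against 3.53% of all loci), and the median level in the library labelled replicate 1 was 1.96. Without it 8 of 9 were higher, with a median of 0.47 and 0 at that level. All 4 tested genes of skin and keratinocytes were lower in 189N3 (median -1.90), their summed level being 23.7 to 41.5 against 66.8 to 152 units. For skin, 2 genes were tested in Dp(16)1Yey/+ (median 0.75), with a summed level of 17.8 to 199 against 19.2 to 30.9, and without replicate 1 only 1 passed the filter (-0.06). The part of these cells in the histone values was not tested. Other lists moved less in 189N3: the median was 0.09 for hippocampus and pallium, -0.11 for neural progenitors, 0.21 for neurons, 0.11 for interneurons, -0.17 for microglia, 0.04 for endothelium and 0.56 for oligodendrocyte precursors. These medians in Dp(16)1Yey/+ were -0.18, -0.03, -0.15, -0.11, -0.14, -0.45 and -0.52, and without replicate 1 they were -0.07, -0.12, -0.10, -0.13, -0.19, -0.35 and -0.35.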

How the data were processed

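RNA of embryonic hippocampus was sequenced in 14 libraries. The submitters' processing notes name Bowtie, TopHat, Cufflinks and the build mm10, with no versions. The authors deposited gene and isoform tables of normalized values, here treated as a signal: fragments divided by a size factor per library. Of the values worth up to 1000 fragments, 100% were whole fragments within 0.02 of a fragment, so fragments were recovered for the count models. Loci carried no symbols. Through isoform numbers and summed isoform values, 51839 of 59796 loci were matched to the deposited map of transcripts to symbols, 20349 of them with a symbol. A further 12 histone symbols occurred only on rows that overlap the gene or lie on its opposite strand and were not members.

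Log2(value + 1) was fitted with limma 3.58.1 (R 4.3.3) over all loci with a mean of at least 10 in the libraries compared, each model against its own littermates and, for the difference of the effects, all 4 groups, with Benjamini-Hochberg adjustment over all loci. Fold changes on this scale understate those of low genes. Exact permutation tests were two-sided (SciPy 1.17.1, Python 3.11.15), and the smallest p is 0.10 for 3 against 3 and 0.0286 for 4 against 4. Alternatives were edgeR 4.0.16, DESeq2 1.42.0, other pseudocounts, filters and scalings, a replicate block, isoform values and leaving out libraries. The fits were also run on simulated counts, drawn independently for each locus. That run does not cover genes that move together, as the members did. Depth was 20809135 to 29098454 fragments per library.

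Named were the 2 highest members of each class, every tested H1 member, the 3 smallest p in each direction, the highest member of each cluster and the members at the filter. Members and lists were chosen with earlier results of these data known. Slbp is in both the histone mRNA processing and the S phase list.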

Additional observations from a re-analysis of the deposited data

Results flagged for a closer look

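In groups of 4 libraries, the gap of the highest or lowest library to its neighbour was divided by the range of the group, and 17 of 78 values tested were above Dixon's 95% critical value, where chance gives about 1 in 20. Of these, 15 were the library labelled Dp(16)1Yey/+ replicate 1 standing above the others, and as the members move together they are not 15 separate results. The ratio was 0.851 for Hist1h1c, 0.945 for Hist1h1d, 0.941 for Hist1h2ab, 0.843 for Hist1h2bb, 0.900 for Hist1h2bp, 0.861 for Hist1h3a, 0.919 for Hist1h3f, 0.832 for Hist1h4f and 0.837 for Hist4h4. For the median log2 level it was 0.912 over all members, 0.910 for H2A, 0.840 for H2B, 0.838 for H3 and 0.853 for Hist1, and for the summed value of the members it was 0.860. Dyrk1a was at 2124 in this library, below every littermate.

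Hist2h2be was lowest in wild-type replicate 2 of the Dp(16)1Yey/+ litters, with a ratio of 0.892. The H4 share of the summed level per kb was highest in Dp(16)1Yey/+ replicate 0, with a ratio of 0.905.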

How the results depend on the processing

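No member had an adjusted p under 0.05 in limma, edgeR or DESeq2 under the alternatives run; over all loci DESeq2 called 15 in 189N3 and 8 in Dp(16)1Yey/+. The count of members lower in 189N3 at an unadjusted p under 0.05 was 13 of 36 in the main fit. It was 7 of 19 with a mean of at least 100, 3 of 38 in 1 fit of all 4 groups and 21 of 36 in edgeR. When each library was left out it was 0 to 25. Of all loci, 1.05% were lower at that level in the main fit and 1.06% in edgeR. With a mean of at least 100, 19 members were lower in 189N3, 5 in Dp(16)1Yey/+, and 22 had a difference of effects above 0, fewer rows being tested. For the difference of effects the count at an unadjusted p under 0.05 was 1 with no filter, 3 in DESeq2 and 0 to 8 when each library was left out. The share of all loci was 2.66% in the main fit and 2.46% in DESeq2. For the other settings named so far the share of all loci is not given here, and their counts alone are no result about the members. Of all loci 45.1% were lower in Dp(16)1Yey/+ with all libraries and 45.6% without replicate 1. For Dp(16)1Yey/+ the count of lower members went from 3 to 34 when each library was left out. That at an unadjusted p under 0.05 went from 0 to 2. The share of all loci at that level was 3.53% with all libraries and 2% without replicate 1. Replicate numbers did not pair the libraries (correlations of same-numbered deviations -0.445 to -0.029). With the number as a replicate block, the members at an unadjusted p under 0.05 were 16 in 189N3, 0 in Dp(16)1Yey/+ and 0 for the difference. The shares of all loci at that level were 2.1%, 2.4% and 1.42%. In these fits 0 members passed adjustment, while 72 loci (0.201%) did in 189N3.

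Medians in 189N3 ranged from -0.93 to -0.32 for H2A and from -0.82 to -0.30 for H2B when each library was left out. Without both 189N3 replicate 1 and wild-type replicate 2, chosen after seeing the data, they were -0.0096 and -0.10, the count at an unadjusted p under 0.05 was 0, and Hist1h1c (0.017, range -1.05 to -0.28 with 1 library left out) and Hist2h3c1 (0.083, range -0.24 to -0.01) changed sign.

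In Dp(16)1Yey/+ these genes changed sign when each library was left out: Hist1h1c (-0.26 to 0.50), Hist1h1d (-0.36 to 0.23), Hist1h1e/Hist1h2be (-0.22 to 0.46), Hist3h2a (-0.11 to 0.13), Hist1h2ab (-0.15 to 0.57), Hist1h2bb (-0.35 to 0.52), Hist2h2bb (-0.29 to 0.57), Hist1h2bp (-0.027 to 0.74), Hist1h3f (-0.40 to 0.34), Hist2h3c1 (-0.036 to 0.48), Hist1h4b (-0.19 to 0.46), Hist1h4d (-0.29 to 0.37), Hist1h4f (-0.39 to 0.35), Hist2h4 (-0.47 to 0.28) and Hist4h4 (-0.20 to 0.39). Near 0, Hist3h2a was -0.025 with median-ratio factors, -0.039 in edgeR and -0.034 in DESeq2, Hist1h4d was -0.00738 with nearly alike littermates averaged and -0.00885 in edgeR, and Hist2h4 was 0.045 in edgeR and 0.059 in DESeq2. The cause was not tested.

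Without division by length the shares were 33.0% for H1, 9.18% for H2A, 48.3% for H2B, 3.95% for H3, 58.1% for Hist1, 31.8% for Hist2, 9.04% for Hist3 and 1.01% for Hist4.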

Other observations

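Some histone rows lay outside the rule. Hist1h1a (H1.1) occurred only on a row that overlaps the gene, with a mean of 1597 units and log2 differences of -0.74 in 189N3 (unadjusted limma p of 0.022) and 0.24 in Dp(16)1Yey/+. Hist1h4m was on such a row too, with a mean of 111 units and differences of -0.63 and 0.07.

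On the strand opposite to histone genes lay 30 rows, with means of 5.62 to 181 units and a median of 47.8. For 19 of them the histone gene itself had a value, and in 9 of these the opposite strand was the higher. Summed over the rows, the opposite-strand values were 1147, 948 and 1077 in 189N3 and 1494, 1081 and 2310 in littermates. They were 856, 4284, 1445 and 1841 in Dp(16)1Yey/+ and 1282, 1324, 1417 and 1685 in littermates, so that the library labelled Dp(16)1Yey/+ replicate 1 was the highest here too. These sums were not tested.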
